A study of Mus musculus with 17 samples.

Results

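The 9 genes described here encode water, sodium and bicarbonate handling proteins of the choroid plexus: Aqp1, Slc12a2, Slc4a2, Slc4a5, Slc4a10, Atp1b1, Car2, Car12 and Car14. They were taken by symbol, through their Ensembl identifiers in GENCODE M21, from a count table of 55487 genes, and all 9 were among the 16851 genes tested. The table holds RNA-seq read counts from 17 libraries of choroid plexus dissected whole from the lateral ventricles of C57BL/6 mice. Dextran sodium sulfate (DSS) is a polymer that injures the lining of the colon and is given to mice to induce colitis. The groups were T1 (1 day of DSS, n = 4), T3 (3 days of DSS, n = 4), T5 (3 days of DSS followed by 2 days of water, n = 4) and CTRL (n = 5), for which the labels give no further treatment. The labels give neither age nor sex, and nothing says whether a library came from 1 animal or from a pool, so p-values measure the spread between these libraries. The study asked, by its title, what the tissue expresses at these 3 times around a DSS exposure.

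The choroid plexus is a fold of vascularised epithelium that hangs in the brain ventricles and secretes most of the cerebrospinal fluid. Its epithelial cells take up sodium and bicarbonate from the blood side, hydrate carbon dioxide to bicarbonate with carbonic anhydrases, and move sodium, chloride, bicarbonate and water across the luminal membrane into the ventricle. Unlike in most epithelia, the sodium pump sits on the luminal side. RNA levels of these genes do not measure transport or secretion. In a bulk tissue library, fewer cells of a type and less RNA per cell cannot be told apart.

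Library totals lay between 8875921 and 26839417 counts, and the 9 genes had 2094 to 30955 counts each in every library. These are reads after PCR, and the number of molecules behind them is not known. Levels are in CPM, counts scaled to a common library total, with library sizes scaled by the trimmed mean of M values (TMM). All 12 markers of choroid plexus epithelium were tested, and transthyretin (Ttr), the main secreted protein of that epithelium, took 6.61% to 13.6% of counts. The libraries also carried RNA of neighbouring brain in unequal amounts, with the summed level of 8 oligodendrocyte markers at 91.0 to 16323 CPM. CTRL 1 and a set of 4 libraries stood apart for these genes. CTRL 1 (numbers within a group name libraries in accession order) was the lowest CTRL library for 8 of the 9. The set of 4 is made of those whose titles carry numbers of 28 and above (T1 2, T1 3, T1 4 and T3 4), in which long genes of the whole table read higher and short genes lower than in the other 13 libraries. The labels name no batch, and within T1 only T1 1 lies outside that set. The treatment and the title number can be told apart only through T1 1 and, in a fit with a term for the set, through T3 4 beside the other 3 T3 libraries.

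None of the 9 genes passed edgeR's quasi-likelihood test, at a Benjamini-Hochberg adjusted p under 0.05, in any comparison. The share of all genes tested that did was 4.02% in T5 against T1 and 0% in the other comparisons. After 1 day of DSS Car2 had the most negative and Slc4a5 the most positive log2 difference from CTRL, and both intervals included 0. After 3 days of DSS 6 of the 9 genes were above CTRL (52.7% of all genes tested were), with Slc4a10 furthest from it, and after 2 days of water 6 of the 9 were below CTRL (45.5% of all genes tested were), with every T5 difference between -0.13 and 0.07 on the log2 scale. These signs moved with the scaling: with libraries scaled to summed epithelial markers 7 of the 9 were above CTRL in T3 and 4 below it in T5, and with the mean log of those markers 3 were below it in T5. All 9 genes had overlapping ranges between the groups in all 6 pairwise comparisons, where 1.7% to 12.2% of all genes tested had ranges that did not overlap. Car2, Slc4a5 and Slc12a2 were called in at least 1 comparison under an alternative setting, as given with each gene. The values of single libraries are given gene by gene below.

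Per length of merged exon the genes ran from carbonic anhydrase II at the top to the sodium-potassium-chloride cotransporter at the bottom. Levels of different genes were compared only as CPM per kilobase of exon, over the merged exons of each gene. Over the 17 libraries Car2 averaged 446 ± 68.6 CPM per kilobase (SD, n = 17), and Atp1b1 averaged 279.9 ± 36.8. Car14 followed at 142 ± 22.2, Car12 at 129 ± 23.8, Slc4a10 at 128 ± 30.99, Slc4a2 at 111 ± 20.6 and Aqp1 at 111 ± 27.4 CPM per kilobase. Slc4a5 averaged 72.4 ± 15.1 and Slc12a2 65.98 ± 10.3 CPM per kilobase. Car2 lay above Atp1b1 within each of the 17 libraries, although their ranges over libraries overlapped, and every library had Atp1b1 above the whole range of Car14. From Car14 down to Slc12a2 the ranges of all neighbours in this order overlapped, and Slc4a2 was above Aqp1 in 8 of 17 libraries. In CTRL the order was the same but for Aqp1, at 112 ± 31.7 CPM per kilobase, standing above Slc4a2 at 105 ± 31.9 (SD, n = 5).

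**Figure D1:**
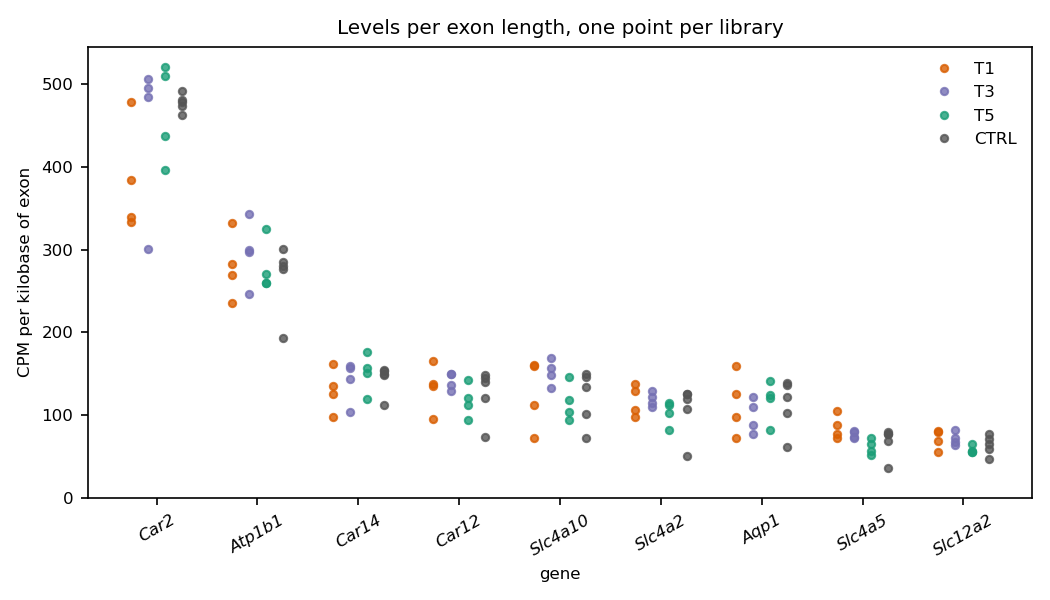
CPM per kilobase of exon (vertical axis) for the 9 genes, with 1 point per library in the columns T1, T3, T5 and CTRL of each gene. Car2 lies highest, Atp1b1 next with no library as low as any Car14 value, and the other 7 genes overlap their neighbours.

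Promoter sequence is shown for 4 of the genes, Slc4a2, Slc4a5 and Car12 because the pairs of Slc4a2 with Slc4a5 and with Car12 had the highest Pearson's r of the 36 pairs over the 17 libraries, and Car14 because its Pearson's r with the epithelial markers was the highest of the 9. Each window runs from 250 bases before to 50 bases after a RefSeq transcript start (GRCm38.p6), 5′ to 3′ on the gene's strand. Windows of 7 of the 9 genes were read, 1 or 2 for each. Capitals mark matches, on either strand, to TATAAA (bound by the basal transcription machinery), CCAAT (bound by the factor NF-Y), GGGCGG (the GC box bound by SP1) or TAATCC (the core bound by the homeodomain factor OTX2, which choroid plexus epithelium expresses). The windows are chr5:24424982-24425281 on the plus strand for Slc4a2, chr6:83237125-83237424 on the plus strand for Slc4a5, chr9:66713436-66713735 on the plus strand for Car12, and chr3:95904636-95904935 on the minus strand for Car14.
Slc4a2: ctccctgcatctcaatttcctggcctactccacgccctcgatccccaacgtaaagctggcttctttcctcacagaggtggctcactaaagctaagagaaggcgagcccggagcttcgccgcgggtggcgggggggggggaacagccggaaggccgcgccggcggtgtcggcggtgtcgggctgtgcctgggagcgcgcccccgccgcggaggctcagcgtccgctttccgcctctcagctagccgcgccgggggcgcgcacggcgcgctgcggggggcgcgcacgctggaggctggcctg
Slc4a5: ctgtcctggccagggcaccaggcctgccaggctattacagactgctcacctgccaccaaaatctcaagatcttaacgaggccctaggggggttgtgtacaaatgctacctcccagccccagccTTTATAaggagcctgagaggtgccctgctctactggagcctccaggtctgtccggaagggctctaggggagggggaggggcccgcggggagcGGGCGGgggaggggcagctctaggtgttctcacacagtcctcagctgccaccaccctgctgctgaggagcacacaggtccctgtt
Car12: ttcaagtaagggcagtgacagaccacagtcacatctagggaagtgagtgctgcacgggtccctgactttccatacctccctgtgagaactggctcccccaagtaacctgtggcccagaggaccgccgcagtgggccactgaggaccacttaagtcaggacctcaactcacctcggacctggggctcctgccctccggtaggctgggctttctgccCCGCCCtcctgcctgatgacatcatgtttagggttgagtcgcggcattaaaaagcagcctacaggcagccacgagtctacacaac
Car14: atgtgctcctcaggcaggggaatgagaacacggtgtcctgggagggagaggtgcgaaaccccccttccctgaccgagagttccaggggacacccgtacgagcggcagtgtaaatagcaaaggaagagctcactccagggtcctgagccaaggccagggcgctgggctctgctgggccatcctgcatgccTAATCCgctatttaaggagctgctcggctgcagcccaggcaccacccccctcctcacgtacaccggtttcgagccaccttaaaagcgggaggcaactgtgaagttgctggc

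The Slc4a2 window held none of the 4 motifs, and neither did a further Slc4a2 window in the table. Slc4a5 held TATAAA on the minus strand at -127 and GGGCGG at -35 from the start, and Car12 held GGGCGG on the minus strand at -35. Car14 held TAATCC at -61 and was the only one of the 9 windows read, which do not cover Slc12a2 or Car2, to hold it. Among all 32851 windows of the table, 13.6% held TATAAA, 37.4% CCAAT, 35.7% GGGCGG and 7.06% TAATCC on either strand. The 4 motifs do not overlap one another in these windows, and a match is a run of letters, not a bound site.

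Of the transporters on the blood side, Slc4a2 encodes the anion exchanger AE2, which swaps chloride for bicarbonate across the basolateral membrane. The gene lies on chromosome 5 (24423837 to 24440950, plus strand, GRCm38) with 8.32 kb of merged exon. Slc4a2 read 881, 1072, 1142 and 814 CPM in the T1 libraries, 916, 1072, 1009.9 and 958 CPM in the T3 libraries, 934, 687, 849 and 951 CPM in the T5 libraries, and 416, 993, 1041, 889.6 and 1045 CPM in the CTRL libraries. The CTRL group was split, with CTRL 1 at 416 CPM and the other 4 CTRL libraries between 889.6 and 1045 CPM, and CTRL 1 was also below every T1, T3 and T5 library. The log2 difference from CTRL was 0.16 ± 0.21 (SE, 95% interval -0.28 to 0.60) in T1, 0.17 ± 0.21 (SE, 95% interval -0.27 to 0.61) in T3 and -0.04 ± 0.21 (SE, 95% interval -0.48 to 0.40) in T5. Without CTRL 1 these values were -0.01, -0.01 and -0.22, so the sign of the T1 and T3 differences rested on that library. The exons of Slc4a2 share 1141 bases (13.7% of its exon bases) with Fastk on the opposite strand, and the strand setting of the counting is not given in the sources used here.

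Slc4a10 encodes a sodium-coupled bicarbonate transporter of the basolateral membrane, NCBE, whose loss in mice shrinks the ventricles. It lies on chromosome 2 (62046462 to 62326730, plus strand) with 6.42 kb of merged exon. Slc4a10 read 1034, 1025, 720.2 and 463 CPM in the T1 libraries, 1010.0, 1088, 957 and 851 CPM in the T3 libraries, 601, 759.8, 665 and 936 CPM in the T5 libraries, and 463, 963, 859.9, 653 and 942 CPM in the CTRL libraries. T1 spread most, from T1 4 at 463 CPM, level with CTRL 1, up to T1 1 at 1034 CPM, while the 4 T3 libraries stayed within the upper part of the CTRL range and above it. Slc4a10 averaged 976 ± 99.6 CPM in T3 and 776 ± 214 CPM in CTRL, a log2 difference of 0.33 ± 0.24 (SE, 95% interval -0.17 to 0.83). In T1 the difference was 0.06 ± 0.24 (SE, 95% interval -0.44 to 0.56) and in T5 -0.07 ± 0.24 (SE, 95% interval -0.57 to 0.43). T5 libraries averaged 741 ± 146 CPM, and T5 minus T3 was -0.40 ± 0.25 (SE, 95% interval -0.93 to 0.13), the widest gap between DSS groups that this gene showed.

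The carbonic anhydrases hydrate carbon dioxide to bicarbonate and a proton. Car2 encodes the cytosolic enzyme carbonic anhydrase II and lies on chromosome 3 (14886273 to 14900770, plus strand) with 2.42 kb of merged exon, the shortest of the 9. Car2 read 1159, 930.5, 808 and 821 CPM in the T1 libraries, 1173, 1199, 1226 and 728 CPM in the T3 libraries, 1060.3, 959, 1262 and 1234 CPM in the T5 libraries, and 1159, 1148, 1122, 1193 and 1164 CPM in the CTRL libraries. The 5 CTRL libraries were the tightest group of any of these genes, with a coefficient of variation of 2.22%, and CTRL 1 stood in their middle. T1 2, T1 3, T1 4 and T3 4 lay below all others, while T1 1 and the other 3 T3 libraries lay in or just above the CTRL range.

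The Car2 mean was 929.7 ± 163 CPM over the T1 libraries and 1157 ± 25.7 CPM over the CTRL libraries (SD), and the log2 difference was -0.32 ± 0.16 (SE, 95% interval -0.64 to 0.01), with an unadjusted p of 0.0578 and an adjusted p of 0.252 in edgeR's quasi-likelihood test. It was -0.10 ± 0.15 (SE, 95% interval -0.42 to 0.23) in T3 and -0.04 ± 0.15 (SE, 95% interval -0.36 to 0.29) in T5. The 4 low libraries are the 4 with title numbers of 28 and above: Car2 stood at 728 to 930.5 CPM in them and at 959 to 1262 CPM in the other 13. No test was made of this split, since it was singled out after seeing the values, and 10.3% of all genes tested were lower in those 4 libraries without overlap. Without the 4 libraries the Car2 difference from CTRL was -0.02 in T1, where 1 library remained, and 0.05 in T3. With a term for the set in place of leaving it out, these values were 0.11 and 0.02. Limma-voom with sample quality weights, which weights libraries unequally, called Car2 lower in T1 than in CTRL, at -0.41 with an adjusted p of 0.0154. It called 4140 of the 16851 genes tested in that comparison. Limma-voom was the only one of the 31 alternatives to call Car2 there, and the adjusted p lay between 0.0154 and 0.9996 over them. The same method called Car2 in T3 against T1 (0.43, adjusted p = 0.0122, with 0.0122 to 0.9998 over the alternatives) and in T5 against T1 (0.37, adjusted p = 0.0329, with 0.0329 to 0.976). In those comparisons it called 4130 and 3741 of all genes tested. Oligodendrocytes and red cells also make carbonic anhydrase II. The 8 oligodendrocyte markers, none at 0 in any library, summed to 294 to 9098 CPM in T1, 163 to 965 CPM in T3, 433 to 16323 CPM in T5 and 91.0 to 6963 CPM in CTRL. The highest sum was in T5 3, which had the highest Car2, and the next was in T1 4, whose Car2 was among the 4 lowest. The red cell markers summed to 456 to 1316 CPM in T1, 429 to 784 CPM in T3, 923 to 2205 CPM in T5 and 421 to 1435 CPM in CTRL, and the part of either cell type in the Car2 level was not tested.

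Car12 encodes a membrane-bound carbonic anhydrase with its active site outside the cell and lies on chromosome 9 (66713686 to 66766845, plus strand) with 7.6 kb of merged exon. Car12 read 1027, 1261, 1044 and 727 CPM in the T1 libraries, 1034, 1137, 1133 and 979.8 CPM in the T3 libraries, 921, 713, 853 and 1084 CPM in the T5 libraries, and 563, 1099, 1062, 914 and 1125 CPM in the CTRL libraries. T1 held both the highest library, T1 2 at 1261 CPM, and 1 of the lowest, T1 4 at 727 CPM, and only T5 2 and CTRL 1 read lower than T1 4. The log2 difference from CTRL was 0.09 ± 0.19 (SE, 95% interval -0.32 to 0.50) in T1, 0.17 ± 0.19 (SE, 95% interval -0.24 to 0.58) in T3 and -0.09 ± 0.19 (SE, 95% interval -0.50 to 0.31) in T5. Without CTRL 1 it was -0.04, 0.02 and -0.24.

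Car14, the other extracellular membrane-bound carbonic anhydrase, lies on chromosome 3 (95897768 to 95904691, minus strand) with 2.54 kb of merged exon, of which 445 bases (17.5%) overlap Aph1a on the opposite strand. Car14 read 411, 342, 319 and 248 CPM in the T1 libraries, 404, 365, 399 and 264 CPM in the T3 libraries, 400.0, 305, 384 and 448 CPM in the T5 libraries, and 286, 380.3, 389, 394 and 379 CPM in the CTRL libraries. The 4 CTRL libraries other than CTRL 1 lay between 379 and 394 CPM, a spread of 1.85% of their mean, and CTRL 1 was well below them at 286 CPM. The lowest Car14 values were in T1 4 and T3 4. The log2 difference from CTRL was -0.15 ± 0.16 (SE, 95% interval -0.49 to 0.20) in T1, -0.03 ± 0.16 (SE, 95% interval -0.37 to 0.31) in T3 and 0.07 ± 0.16 (SE, 95% interval -0.27 to 0.41) in T5, and without the 4 libraries of high title number the T1 and T3 values were 0.15 and 0.09.

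On the luminal side, Slc4a5 encodes the electrogenic sodium bicarbonate cotransporter NBCe2, which moves bicarbonate towards the ventricle. It lies on chromosome 6 (83219828 to 83304945, plus strand) with 5.8 kb of merged exon. Slc4a5 read 448, 613, 508 and 418 CPM in the T1 libraries, 416, 461, 428 and 467 CPM in the T3 libraries, 376, 299, 331 and 422 CPM in the T5 libraries, and 207, 447, 446, 397 and 462 CPM in the CTRL libraries. T1 2 was the highest library and CTRL 1 the lowest, and the other 4 CTRL libraries, 397 to 462 CPM, covered nearly the same range as T3. All T5 libraries but T5 4 lay below every T1 library, and T5 4 fell inside the T1 range. The Slc4a5 mean was 497 ± 85.8 CPM over the T1 libraries and 392 ± 106 CPM over the CTRL libraries (SD), with a log2 difference of 0.34 ± 0.19 (SE, 95% interval -0.06 to 0.74) and an adjusted p of 0.305 in edgeR's test. The difference was 0.18 ± 0.19 (SE, 95% interval -0.22 to 0.58) in T3 and -0.13 ± 0.19 (SE, 95% interval -0.54 to 0.27) in T5.

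Between the DSS groups, Slc4a5 averaged 357 ± 53.6 CPM in T5 and 497 ± 85.8 CPM in T1, and T5 minus T1 was -0.48 ± 0.20 (SE, 95% interval -0.90 to -0.05). Its unadjusted p in edgeR's test was 0.0300 and its adjusted p 0.146, the lowest unadjusted p of any of the 9 genes in any comparison, where 4.02% of all genes tested were called at an adjusted p under 0.05. Without CTRL 1, which is in neither group but enters the estimate of the spread, the value was -0.49 with an adjusted p of 0.0396. Limma-voom with sample quality weights gave -0.51 with an adjusted p of 0.0452, and edgeR on library totals without TMM gave -0.66 with an adjusted p of 0.0419. These settings, and the fit without CTRL 1, called 3741, 1336 and 759 of all genes tested. Library totals also moved the median of all genes in T5 against T1 by -0.18. The 31 alternatives gave adjusted p values of 0.0396 to 0.887. T1 2, T1 3 and T1 4 belong to the libraries of high title number, where Slc4a5 averaged 501 CPM against 395 CPM in the other 13.

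Slc12a2 encodes the sodium-potassium-chloride cotransporter NKCC1, which sits on the luminal membrane of this epithelium. It lies on chromosome 18 (57878678 to 57946821, plus strand) and has the longest merged exon of the 9, 10.92 kb. Slc12a2 read 879, 863, 748 and 608 CPM in the T1 libraries, 736, 899, 789 and 691 CPM in the T3 libraries, 625, 605, 609.9 and 707 CPM in the T5 libraries, and 509, 845, 712, 641 and 780.0 CPM in the CTRL libraries. T5 1, T5 2 and T5 3 lay close together between 605 and 625 CPM, below all 4 T3 libraries, while T5 4 was inside the T3 range. The log2 difference from CTRL was 0.15 ± 0.15 (SE, 95% interval -0.16 to 0.46) in T1, 0.16 ± 0.15 (SE, 95% interval -0.15 to 0.47) in T3 and -0.13 ± 0.15 (SE, 95% interval -0.45 to 0.18) in T5. T5 minus T3 was -0.29 ± 0.16 (SE, 95% interval -0.62 to 0.04), with an adjusted p of 0.506 in edgeR's test. T5 minus T1 was -0.28 ± 0.16 (SE, 95% interval -0.61 to 0.05) with an adjusted p of 0.274 in edgeR's test. Over all genes tested with 8 kb and over of exon the median T5 minus T1 was -0.25. EdgeR on library totals without TMM gave -0.44 for Slc12a2 with an adjusted p of 0.0321. That scaling moved the median of all genes by -0.18 and called 1336 of all genes tested. It gave the only call of Slc12a2 among 31 alternatives, with adjusted p of 0.0321 to 0.717.

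Atp1b1 encodes the beta 1 subunit of the sodium pump and lies on chromosome 1 (164437109 to 164458355, minus strand) with 3.08 kb of merged exon, 575 bases (18.7%) of it shared with Nme7 on the opposite strand. Atp1b1 read 1025, 870.3, 829.9 and 726 CPM in the T1 libraries, 917, 924, 1057 and 758 CPM in the T3 libraries, 833, 801, 801 and 1003 CPM in the T5 libraries, and 595, 878, 864, 928 and 851 CPM in the CTRL libraries. CTRL 1 was the lowest of all 17 libraries and the other 4 CTRL libraries lay within 851 to 928 CPM. In T5 the libraries other than T5 4 were nearly equal, and T5 4 stood above them at 1003 CPM. The log2 difference from CTRL was 0.07 ± 0.15 (SE, 95% interval -0.24 to 0.38) in T1, 0.15 ± 0.15 (SE, 95% interval -0.16 to 0.46) in T3 and 0.06 ± 0.15 (SE, 95% interval -0.25 to 0.37) in T5, the narrowest intervals among the 9 genes beside those of Slc12a2.

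Aqp1 encodes the water channel aquaporin 1 of the luminal membrane and lies on chromosome 6 (55336432 to 55348555, plus strand) with 2.63 kb of merged exon. Aqp1 read 419, 331, 256 and 191 CPM in the T1 libraries, 321, 289.6, 202 and 232 CPM in the T3 libraries, 326, 216, 318 and 369 CPM in the T5 libraries, and 162, 321, 364, 357 and 271 CPM in the CTRL libraries. Its coefficient of variation over all 17 libraries, 24.8%, was the highest of the 9 genes, just above 24.2% for Slc4a10, and each group held libraries both above and below the mean of every other group. The log2 difference from CTRL was 0.02 ± 0.25 (SE, 95% interval -0.50 to 0.54) in T1, -0.18 ± 0.25 (SE, 95% interval -0.70 to 0.35) in T3 and 0.06 ± 0.25 (SE, 95% interval -0.46 to 0.58) in T5. Without CTRL 1 the values were -0.12, -0.33 and -0.10.

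**Figure D2:**
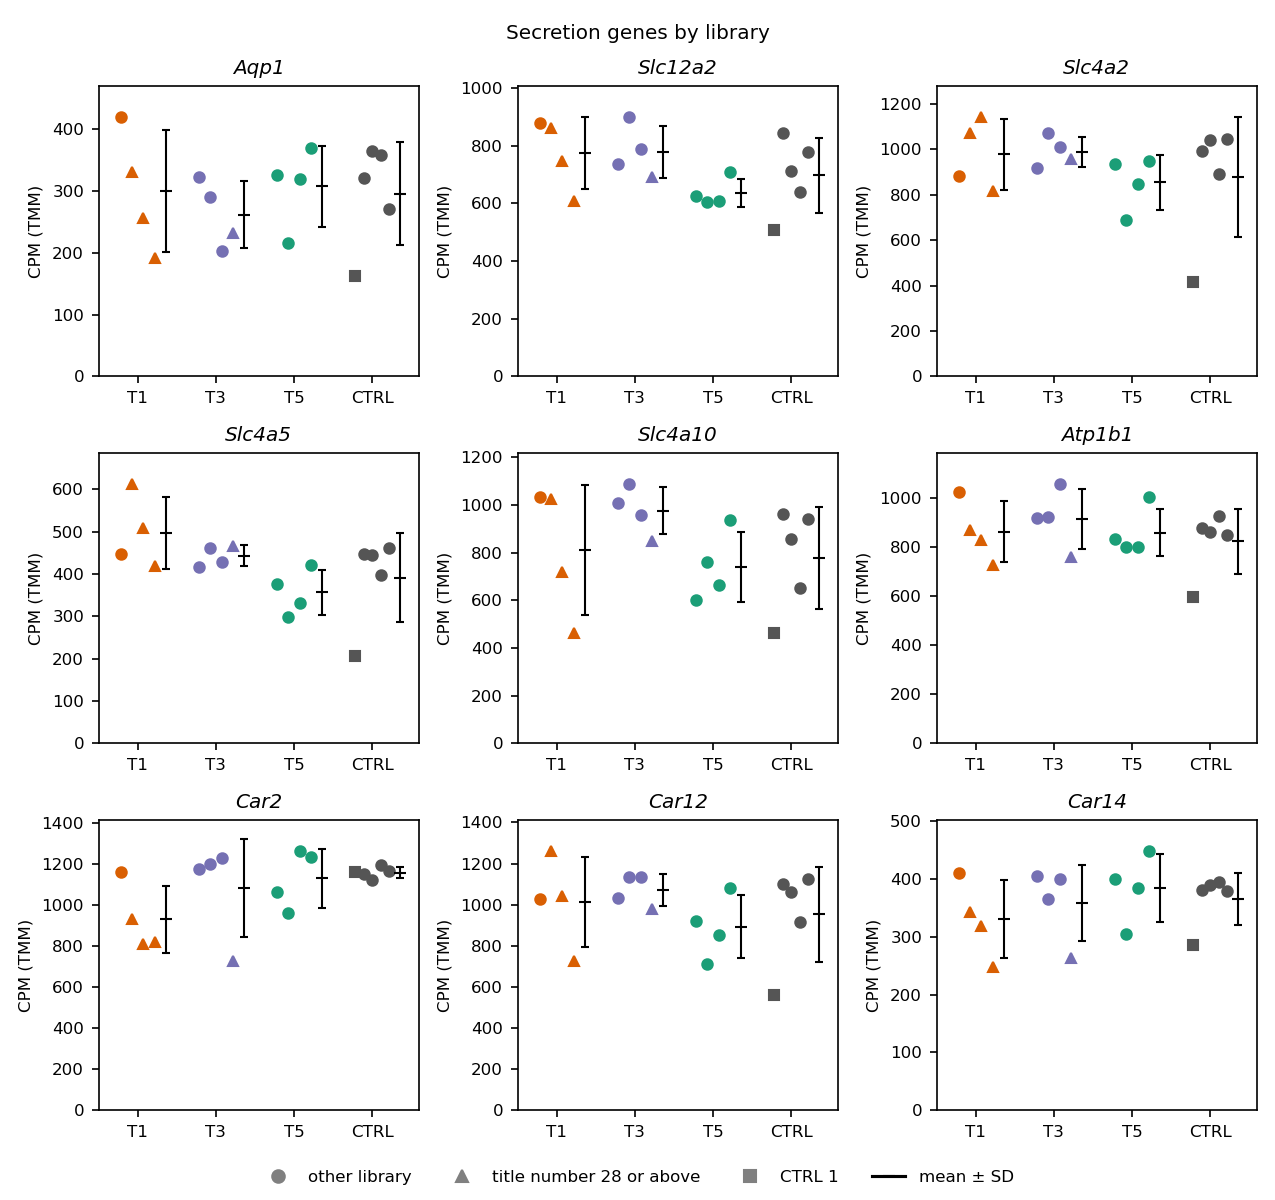
TMM-scaled CPM (vertical axes, from 0) of the 9 genes in each library, by group, with the mean and SD beside the points. CTRL 1 (square) is the lowest CTRL library in 8 panels, and the libraries with title numbers of 28 or above (triangles) are the lowest 4 for Car2.

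In T1 against CTRL 0 of 9 genes were called at an adjusted p under 0.05 in edgeR's quasi-likelihood test, where 0% of all genes tested were called, and 0 of 9 had an unadjusted p under 0.05, against 21.1% of all genes tested. The same 0 of 9 held for T3 against CTRL, where 0% were called and 4.97% had an unadjusted p under 0.05, and for T5 against CTRL, with 0% called and 7.83%. The median log2 difference of the 9 genes was 0.07 in T1, 0.16 in T3 and -0.04 in T5, beside 0.08, 0.02 and 0.02 over all genes tested. In T1 7 of the 9 were above 0, in T3 6 and in T5 3, where 57.7%, 52.7% and 54.5% of all genes were. DESeq2 called 0 of the 9 in each of these comparisons and 701, 2 and 12 of all genes in T1, T3 and T5, and limma-voom with sample quality weights called Car2 in T1, among 4140 genes, and no gene in T3 or T5. The 3 comparisons share the CTRL libraries, CTRL 1 among them.

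Between DSS groups 0 of 9 genes were called in T3 against T1 and in T5 against T3, where 0% of genes tested were called, with 8.2% and 10.5% at an unadjusted p under 0.05. In T5 against T1 0 of 9 were called where 4.02% of all genes were, and 1 of 9, Slc4a5, had an unadjusted p under 0.05 where 25.8% had. DESeq2 called 0 of the 9 between DSS groups too, where it called 16 genes in T3 against T1, 80 in T5 against T3 and 2158 in T5 against T1. Limma-voom called Car2 in T3 against T1, among 4130 genes, and Car2 and Slc4a5 in T5 against T1, among 3741 genes. The test of any difference among the 4 groups called 0 of 9 where 0% were called, with 0 of 9 at an unadjusted p under 0.05 beside 18% of all genes. Limma-voom called Car2 there, among 3907 genes. No gene of the 9 was free of overlap between groups, where 6.76% of genes tested were in T1 against CTRL, 1.7% in T3 against CTRL, 2.56% in T5 against CTRL, 2.68% in T3 against T1, 7.36% in T5 against T3 and 12.2% in T5 against T1. The widest 95% intervals, those of Aqp1 and Slc4a10, leave room for log2 differences from CTRL of about -0.70 and 0.83 in T3, and the intervals of the other genes are narrower. These intervals bound what the libraries allow and do not show equal levels.

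**Figure D3:**
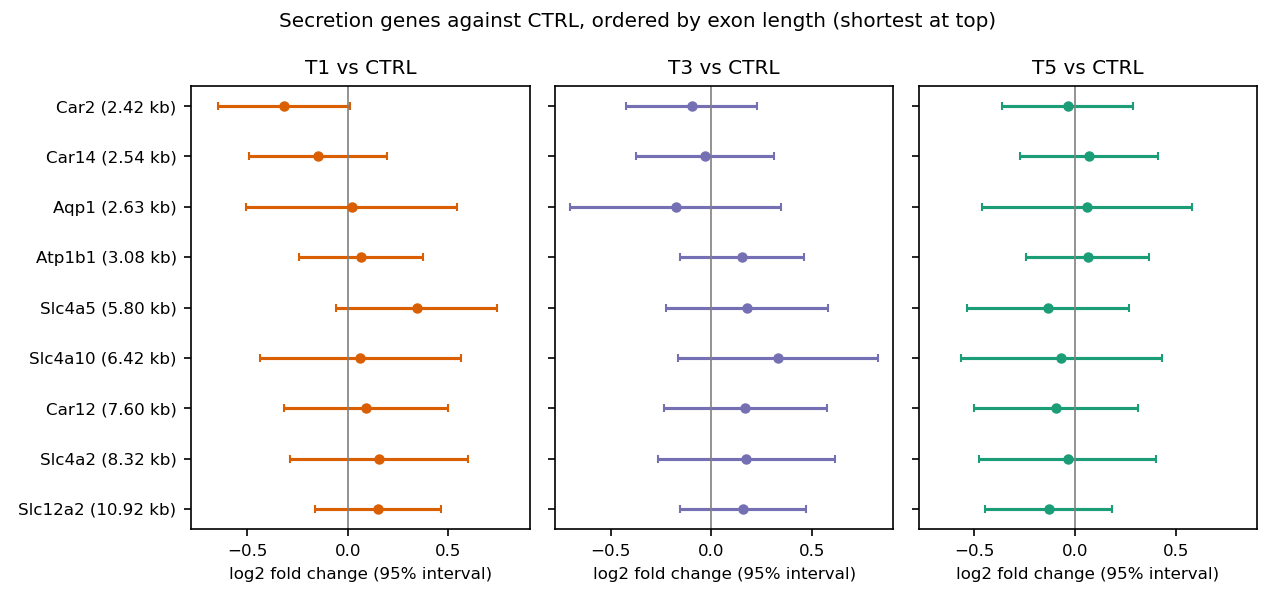
Log2 fold change against CTRL (horizontal axes) of the 9 genes in T1, T3 and T5, as points with 95% intervals, ordered by exon length with the shortest at the top. Every interval includes 0, and in T1 Car2 and Car14 lie left of 0 and the other 7 genes right of it.

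Over all genes tested the T1 differences ran with exon length, and the 9 genes followed that order only in part. The 5 genes with 5.8 kb or more of exon (Slc4a5, Slc4a10, Car12, Slc4a2 and Slc12a2) had T1 minus CTRL values of 0.06 to 0.34, while Car2 and Car14, the shortest, were at -0.32 and -0.15. Aqp1 (2.63 kb) and Atp1b1 (3.08 kb) were at 0.02 and 0.07, and among the 5 long genes the highest value was that of Slc4a5, the shortest of them. No test of an order by length was made over the 9. Over all genes tested the median T1 minus CTRL value was -0.23 for exons under 2 kb, -0.01 for 2 to 4 kb, 0.14 for 4 to 8 kb and 0.28 for 8 kb and over. The median T5 minus T1 value ran the other way, at 0.35, 0.09, -0.09 and -0.25 in the same classes. Each of the 4 libraries of high title number showed this slope, with medians of -0.23 to -0.32 for the shortest genes and 0.23 to 0.28 for the longest, and T1 1 did not, at 0.04 and -0.001. CTRL 1 did not show it either, at 0.10 and 0.01. CTRL 4, T5 1 and T5 4 sloped the other way, at 0.18 and -0.16, 0.16 and -0.17, and 0.17 and -0.09. With the slope of each library as a covariate, T1 minus CTRL was -0.01 for Car2, 0.19 for Car14, 0.38 for Aqp1, 0.35 for Slc4a5 and 0.20 for Slc4a2, and 0 of the 9 genes were called. What sets the length pattern was not tested. More genes had a read in the libraries of high title number, 26356 to 30293 against 21315 to 24824 in the other 13. Mitochondrial genes took less of their counts, 1.86% to 2.04% against 2.50% to 3.75%. The libraries of high title number also held less Ttr, 6.61% to 9.59% of counts against 9.10% to 13.6% in the other 13, and more endothelial marker RNA, with all 10 markers summing to 278 to 505 CPM against 109.5 to 248 CPM in the other 13. By group that sum was 215 to 505 CPM in T1, 141 to 278 CPM in T3, 155 to 236 CPM in T5 and 109.5 to 248 CPM in CTRL, and no marker of the list was at 0. In T1 against CTRL 0 of the 10 were called and 7 were higher at an unadjusted p under 0.05 in edgeR's test, as were 9.43% of all genes tested. The part of epithelial or endothelial RNA in these results was not tested.

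**Figure D4:**
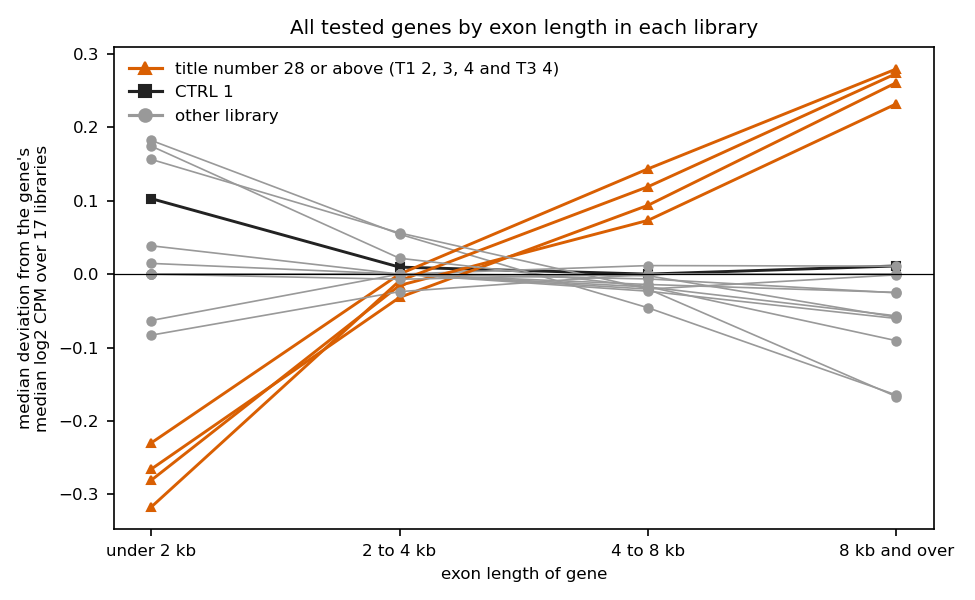
Median deviation of all tested genes from their own median log2 CPM (vertical axis) in 4 classes of exon length (horizontal axis), with 1 line per library. The 4 libraries with title numbers of 28 or above run from below -0.2 in genes under 2 kb to above 0.2 in genes of 8 kb and over, and CTRL 1 does not.

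Several of the genes varied together across libraries. The relations were computed for all 36 pairs of the 9 genes over the 17 libraries, with permutation p-values adjusted over the 36. Slc4a2 and Slc4a5 had the highest Pearson's r over all 17, 0.917, with Spearman's rho of 0.826 (adjusted permutation p = 1.2e-04 and 7.2e-04). Slc4a2 with Car12 gave r = 0.906 and rho = 0.870 (1.4e-04 and 6.0e-04), and Slc4a5 with Car12 gave 0.880 and 0.740 (2.4e-04 and 0.00389). Leaving out the 2 libraries farthest from the median of the first gene lowered these r values to 0.694, 0.797 and 0.721, and leaving out CTRL 1 alone gave 0.810, 0.865 and 0.769. Within the 13 libraries of lower title number they were 0.959, 0.952 and 0.977. The other 4 libraries are too few for a value.

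The highest rho values were those of Slc12a2, with r = 0.877 and rho = 0.897 for Slc4a10 (adjusted permutation p = 1.2e-04 and 1.8e-04) and r = 0.886 and rho = 0.875 for Car12 (1.2e-04 and 1.8e-04). Those r values were 0.811 and 0.838 without the 2 farthest libraries, and 0.923 and 0.867 within the 13, and 0.830 and 0.836 without CTRL 1. None of the relations of Car2 with the SLC4 genes passed: with Slc4a2, Slc4a5 and Slc4a10 its r was -0.10, -0.278 and 0.248, with adjusted permutation p of 0.719, 0.322 and 0.380 and rho of -0.09, -0.326 and 0.250 (adjusted 0.757, 0.315 and 0.424). Within the 13 libraries of lower title number these r values were all positive, at 0.243, 0.261 and 0.202. Its closest relation was with Car14, at r = 0.786 and rho = 0.640 (adjusted permutation p = 0.00177 and 0.0180), and 0.741 without the 2 farthest. Within the 13 libraries of lower title number the Car2 and Car14 relation was weaker, at r = 0.488. Car14 had r of 0.789, 0.794 and 0.810 with Slc4a2, Slc4a5 and Car12 within the 13, where over all 17 libraries the values were 0.399, 0.208 and 0.568. Atp1b1 had r of 0.801, 0.850 and 0.840 with the same genes within the 13, where over all 17 they were 0.681, 0.586 and 0.771. Leaving only CTRL 1 out of the 17 gave 0.237, -0.061 and 0.493 for Car14 and 0.270, 0.167 and 0.582 for Atp1b1. CTRL 1 is among the 13, and no value was computed within the 13 without it. All values share their library's depth, scaling and tissue make-up.

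**Figure D5:**
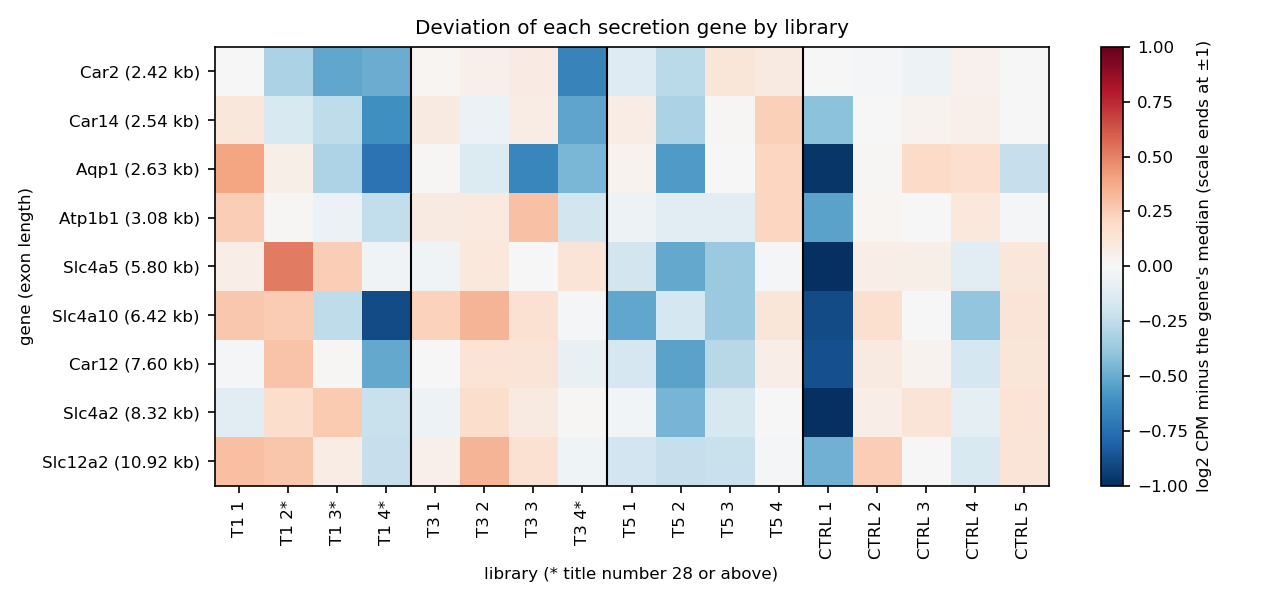
Log2 CPM of each gene minus its median over the 17 libraries (colour, scale ending at -1 and 1), with genes ordered from short to long exon and libraries by group. CTRL 1 is blue in every row but Car2, and the starred libraries with title numbers of 28 or above are blue for Car2.

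The genes also differed in how closely they tracked the epithelial markers. Over 18 relations, of the 9 genes with the summed epithelial markers and with the mean of the brain cell markers, Car14 had the highest Pearson's r, with r = 0.938 and rho = 0.890 with the epithelial sum (adjusted permutation p = 1.8e-04 and 9.0e-05). Without the 2 farthest libraries it was 0.865, and within the 13 libraries of lower title number 0.842. Atp1b1 had the highest rho (r = 0.781, rho = 0.917, adjusted permutation p = 0.00171 and 9.0e-05), and Aqp1 passed as well (r = 0.733, rho = 0.750, 0.00423 and 0.00480), with r of 0.850 and 0.732 within the 13 and 0.799 and 0.688 without the 2 farthest. For Car2 r was 0.767 and rho 0.623 (adjusted permutation p = 0.00294 and 0.0330), 0.554 without the 2 farthest, and 0.392 within the 13. Slc4a5 had r = 0.187 and rho = -0.01 over all libraries (adjusted permutation p = 0.473 and 0.973), 0.400 without the 2 farthest, and 0.753 within the 13. For Slc4a10 r was 0.599 and rho 0.515 (adjusted permutation p = 0.0401 and 0.0729). Its r was 0.544 without the 2 farthest and 0.597 within the 13. Slc12a2, Slc4a2 and Car12 had r of 0.486, 0.296 and 0.532 (adjusted permutation p = 0.0728, 0.277 and 0.0621). Their rho values were 0.473, 0.113 and 0.400 (0.0869, 0.752 and 0.156), and within the 13 their r values were 0.642, 0.628 and 0.725. CTRL 1 is among the 13 and had the lowest epithelial sum of them, 136648 CPM. It was also the lowest library for Slc4a2, Slc4a5, Slc12a2 and Car12. No relation with the markers was computed without CTRL 1. With the brain markers all 9 r values were negative, from -0.56 for Car14 to -0.24 for Slc4a5, and none had an adjusted permutation p under 0.05 by Pearson's r, the lowest being 0.0583. By Spearman's rho Atp1b1 and Car14 passed, at -0.674 and -0.608 (adjusted permutation p = 0.0184 and 0.0344). Without the 2 farthest libraries their r values with the brain markers were -0.644 and -0.597, and within the 13 -0.414 and -0.337. For Car2 r was -0.430 and rho -0.272 (adjusted permutation p = 0.119 and 0.350), with r of -0.453 without the 2 farthest and -0.033 within the 13. Ttr makes up most of the epithelial sum. Car14, Atp1b1, Aqp1 and Car2 passed with that sum by both r and rho, and have the shortest merged exons of the 9 (2.42 to 3.08 kb). The part of exon length in these relations was not tested.

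For each gene the 3 others most like it by Pearson's r of log2 CPM over the 17 libraries, out of 9050 genes whose mean reached 10 CPM, are given as a description. Slc4a2 was most like Cds1 (0.976), Ace (0.963) and Scube3 (0.963), and Slc4a5 most like Slc12a4 (0.968), Cachd1 (0.959) and Aplp2 (0.954). Car12 was closest to Slc2a12 (0.965), Tm9sf2 (0.964) and Slc37a2 (0.956), and Slc4a10 to Sec23a (0.959), Sgpp1 (0.958) and Copb1 (0.957). Slc12a2 was closest to Matn2 (0.950), Entpd5 (0.950) and Sulf1 (0.927). Atp1b1 ran with Hsd17b12 (0.957), Pon2 (0.941) and Rcn2 (0.935), and Car14 with Cd9 (0.970), Rdh5 (0.964) and Tmed10 (0.962). Car2 ran with Efcab1 (0.945), Cfap300 (0.937) and Pla2g16 (0.933). Aqp1 had the loosest set, Kdelr1 (0.891), Prpf19 (0.869) and Dgat1 (0.864). Without CTRL 1 the r values of the Slc4a2 set were 0.920, 0.888 and 0.879, those of the Slc4a5 set 0.928, 0.914 and 0.898 and those of the Aqp1 set 0.867, 0.905 and 0.804, while those of the Car2 set were 0.945, 0.937 and 0.932. The likest genes were not chosen again without CTRL 1. Slc12a4, the closest gene to Slc4a5, encodes a potassium chloride cotransporter and is itself in the list of SLC12 genes below.

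Related genes of the same pathways were followed in 7 lists with 70 genes, of which 52 were tested. In T1 against CTRL 0 of the 52 were called in edgeR's test, and 6 were higher and 4 lower at an unadjusted p under 0.05, which is 19.2% of the 52, beside 21.1% of all genes tested (9.43% higher and 11.7% lower). In T3 against CTRL 0 were called, with 5 higher and 2 lower at that level beside 3.2% and 1.77% of all genes, and in T5 against CTRL 0 were called, with 3 higher and 1 lower beside 3.89% and 3.94%. DESeq2 called 1 of the 52 lower in T1 and none in T3 or T5, beside 701, 2 and 12 of all 16851 genes tested. Limma-voom with sample quality weights called 8 higher and 5 lower in T1, beside 1997 higher and 2143 lower of all 16851 genes tested. It called none in T3 or T5, of the 52 or of all genes tested. In T3 against T1 and T5 against T3 0 of the 52 were called in edgeR's test, with 2 higher and 7 lower in T3 against T1 and 1 higher and 4 lower in T5 against T3 at an unadjusted p under 0.05, which is 17.3% and 9.62% of the 52 beside 8.2% and 10.5% of all genes tested. DESeq2 called 0 in T3 against T1 and 1 lower in T5 against T3, beside 16 and 80 of all genes tested. Limma-voom called 5 higher and 10 lower in T3 against T1, beside 2101 higher and 2029 lower of all genes tested. In T5 against T3 it called 0, of the 52 or of all genes tested. In T5 against T1 1 of the 52 was called, where 4.02% of all genes were. This was Slc4a3, the anion exchanger AE3, at 32.2 ± 8.18 CPM in T1, 21.4 ± 10.4 in T3, 14.7 ± 2.10 in T5 and 19.2 ± 2.93 in CTRL (SD, n = 4 in each DSS group and 5 in CTRL, as below), and T5 minus T1 was -1.14 ± 0.26 (SE) with an adjusted p of 0.0297. It was called in 16 of 31 alternatives, with adjusted p of 0.00170 to 0.766 and a log2 difference of -1.44 to -0.30 over them. T1 2, T1 3 and T1 4 belong to the libraries of high title number. With a term for that set, or with the length slope as a covariate, 0 genes were called in T5 against T1, so Slc4a3 was not called there.

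Among 10 tested subunits and regulators of the sodium pump, the 2 of highest level per kilobase were Fxyd1 and Atp1b3. Fxyd1, or phospholemman, a small regulator of the pump, was at 628 ± 307 CPM in T1, 773 ± 237 in T3, 1094 ± 224 in T5 and 931 ± 148 in CTRL, and T1 minus CTRL was -0.57 ± 0.28 with an adjusted p of 0.257. Atp1b3, the beta 3 subunit, was at 483 ± 76.2 CPM in T1, 548 ± 25.7 in T3, 530.4 ± 60.3 in T5 and 464 ± 98.1 in CTRL. Among the other aquaporins 3 of 11 were tested. Aqp4, the water channel of astrocyte end feet, was at 37.1 ± 32.5 CPM in T1, 15.2 ± 7.69 in T3, 53.5 ± 42.95 in T5 and 27.97 ± 29.7 in CTRL, and Aqp11 at 29.3 ± 5.99 CPM in T1, 30.4 ± 2.17 in T3, 29.3 ± 4.79 in T5 and 31.8 ± 5.75 in CTRL. Per kilobase Aqp4 was at 5.31 and Aqp11 at 3.22, beside 111 for Aqp1.

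Of the SLC12 genes besides Slc12a2, which carry chloride with sodium or potassium, 7 were tested, with 0 called in T1 against CTRL and 2 higher at an unadjusted p under 0.05, where 9.43% of all genes tested were. Slc12a4 was at 276 ± 28.5 CPM in T1, 273 ± 19.9 in T3, 208 ± 30.6 in T5 and 232 ± 65.9 in CTRL. Slc12a7, another potassium chloride cotransporter, was at 73.00 ± 17.8 CPM in T1, 72.5 ± 17.3 in T3, 50.8 ± 13.96 in T5 and 47.5 ± 16.6 in CTRL, with T1 minus CTRL at 0.62 ± 0.26 and T3 minus CTRL at 0.61 ± 0.26, with adjusted p of 0.200 and 0.911 in edgeR's test. Of the SLC4 genes besides the 3 described 6 were tested, with 0 called in T1 against CTRL and 2 higher at an unadjusted p under 0.05, beside the same 9.43%, Slc4a3 with 0.75 ± 0.24 (adjusted p = 0.140) among them. Slc4a11 was at 15.5 ± 3.44 CPM in T1, 12.3 ± 1.37 in T3, 10.2 ± 1.19 in T5 and 10.9 ± 4.44 in CTRL. Slc4a3 and Slc4a11 were low beside the 3 described SLC4 genes, at 2.52 and 2.43 CPM per kilobase.

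Of the sodium-proton exchanger list, 9 of 11 genes were tested, and the 2 of highest level per kilobase were not exchangers but the scaffold proteins that anchor them. Slc9a3r1, or NHERF1, was at 125 ± 17.1 CPM in T1, 143 ± 24.9 in T3, 155 ± 9.23 in T5 and 173 ± 6.59 in CTRL, with T1 minus CTRL at -0.47 ± 0.12 (edgeR unadjusted p = 9.5e-04, adjusted p = 0.130). Slc9a3r2 was at 44.8 ± 12.9 CPM in T1, 30.8 ± 6.37 in T3, 43.5 ± 9.29 in T5 and 38.3 ± 5.74 in CTRL. Of the other carbonic anhydrases 9 of 13 were tested, and Car10, which lacks catalytic activity, led at 104 ± 25.9 CPM in T1, 113 ± 4.76 in T3, 111 ± 17.3 in T5 and 117 ± 14.3 in CTRL. Car11, also without catalytic activity, was at 16.9 ± 3.49 CPM in T1, 14.9 ± 6.61 in T3, 15.99 ± 3.92 in T5 and 13.6 ± 3.17 in CTRL. Both were far below the 3 described enzymes per kilobase, at 17.6 and 7.91 CPM.

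The WNK and SPAK kinases and their scaffolds, which switch on NKCC1 by phosphorylation, were all 8 tested, with 2 lower at an unadjusted p under 0.05 in T1, where 11.7% of all genes tested were, and 0 in T3 and T5. Stk39, or SPAK, was at 815 ± 129.8 CPM in T1, 955 ± 131 in T3, 883 ± 81.4 in T5 and 1005 ± 68.9 in CTRL, with T1 minus CTRL at -0.30 ± 0.13 and an adjusted p of 0.200 in edgeR's test. Cab39l, a scaffold that activates SPAK, was at 1222 ± 259 CPM in T1, 1540.5 ± 279 in T3, 1358 ± 166 in T5 and 1552 ± 118 in CTRL, with T1 minus CTRL at -0.34 ± 0.16 and an adjusted p of 0.222. Per kilobase both, at 186 and 208 CPM, stood above 7 of the 9 genes and below Atp1b1 and Car2.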

How the data were processed

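RNA-seq was done on whole choroid plexus of the lateral ventricles, in 17 libraries of 4 groups. Per the labels' protocols, RNA was extracted with a Direct-zol column kit and made into libraries with SMART-Seq v4, a low-input kit that primes at the poly(A) tail and amplifies by PCR. The authors deposited 1 table of raw counts, a whole number of reads for each gene and library with no normalization. Per the submitters' processing notes, Trimmomatic 0.39, STAR 2.6.1b, featureCounts 1.6.4 and the GRCm38 build were used; for the annotation release, the strand setting and reads with several matches, settings were not given in the sources used here. PCR copies cannot be told from separate molecules in such counts.

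Of 55487 gene identifiers, 55394 were in GENCODE M21, which gave symbols, positions and merged exon length. No sequence or value was taken from any other table except the promoter windows of RefSeq. Counts of genes past edgeR's filter by group (16851 genes) were tested in 1 fit of all 17 libraries with group as the only term (edgeR 4.0.16, R 4.3.3, TMM, robust quasi-likelihood F test, common biological coefficient of variation 37.6%), with Benjamini-Hochberg adjustment over all genes tested and a threshold of 0.05. The SE is the log2 fold change over the square root of F, and 95% intervals use the fit's degrees of freedom. Log2 CPM used a prior count of 2. Correlations used 100000 permutations, two-sided. The fit was also run on simulated counts in which 200 genes were changed in T1. Those counts held no set of 4 libraries, no length slope and no low CTRL 1, so they do not test the fit against these features. Alternatives were DESeq2 1.42.0, limma 3.58.1 (voom), other scalings, no filter, covariates and libraries left out.

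The 9 genes and the lists were chosen with earlier results of these data known. Genes named besides the 9 were, for each of them, the 3 most correlated genes of at least 10 mean CPM that carry a symbol other than a Gm or Rik one, and, for each pathway list, the 2 of highest mean CPM per kilobase and any gene called. Marker lists of 10 cell types, of which epithelium, endothelium, oligodendrocytes and red cells are reported, came with the design. Libraries of 1 group differed by more than sampling noise, with chi-square per gene of 7.52 to 107 between pairs, so none was counted as a repeat.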

Additional observations from a re-analysis of the deposited data

Results flagged for a closer look

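Groups of 4 or 5 libraries were searched, gene by gene, for a highest or lowest library set far apart from the rest relative to the group's range. Of 36 groups, 6 had one, and chance alone gives about 1 in 20 groups. CTRL 1 gave 4 of the 6, as the lowest CTRL library for Slc4a2 (416 CPM), Slc4a5 (207 CPM), Atp1b1 (595 CPM) and Car14 (286 CPM). T3 4 was the lowest T3 library for Car2, at 728 CPM. T5 4 was the highest T5 library for Atp1b1, at 1003 CPM.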

How the results depend on the processing

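No paired analysis was possible because the labels carry no replicate numbers shared across groups. Of 837 log2 differences of T1, T3 or T5 from CTRL under 31 alternatives, 76 had the opposite sign to the value reported, all within 0.22 of 0, and none of those was called. Those that turned are given in the same units. With limma-voom and sample quality weights, these were Aqp1 -0.16, Slc4a10 -0.072 and Atp1b1 -0.012 in T1, Car2 0.016 and Car14 0.044 in T3, Aqp1 -0.0019 in T5. Without a filter on low counts, these were Aqp1 -0.0084 in T1. With libraries scaled to summed epithelial markers, these were Car14 0.069 in T1, Car14 0.035 in T3, Slc4a2 0.037 and Car2 0.0039 in T5. With the mean log of those markers, these were Slc4a2 0.053, Slc4a10 0.0078 and Car2 0.0079 in T5. Without the 4 libraries of high title number, these were Slc4a2 -0.016 and Car14 0.15 in T1, Car2 0.054 and Car14 0.092 in T3. With a term for those 4 libraries, these were Car2 0.11 and Car14 0.22 in T1, Car2 0.018 and Car14 0.076 in T3. With a brain marker covariate, these were Slc4a2 0.070, Slc4a10 0.11, Car2 0.047 and Car12 0.037 in T5. With both of these terms, these were Car2 0.11 and Car14 0.19 in T1, Car2 0.020 and Car14 0.024 in T3, Slc4a2 0.11, Slc4a5 0.010, Slc4a10 0.093 and Car12 0.055 in T5. With the length slope as a covariate, these were Car14 0.19 in T1, Aqp1 0.039, Car2 0.033 and Car14 0.13 in T3, Car2 0.0062 in T5. Without CTRL 1 and the 4 libraries, these were Slc4a2 -0.20, Car12 -0.057 and Car14 0.068 in T1, Slc4a5 -0.014, Car2 0.050 and Car14 0.012 in T3, Aqp1 -0.10, Atp1b1 -0.041 and Car14 -0.013 in T5. With 1 library left out, CTRL 1 turned 9 of these signs and each of 9 other libraries 1 to 3 (T1 1, T1 2, T3 4, T5 1, T5 2, T5 4, CTRL 2, CTRL 3 and CTRL 5), and ranges that cross 0 were Aqp1 -0.19 to 0.19, Slc4a2 -0.0099 to 0.24, Slc4a10 -0.081 to 0.26, Atp1b1 -0.030 to 0.14 and Car12 -0.039 to 0.22 in T1, Slc4a2 -0.0094 to 0.24, Car2 -0.16 to 0.045 and Car14 -0.11 to 0.086 in T3 and Aqp1 -0.10 to 0.18, Slc4a2 -0.22 to 0.042, Slc4a10 -0.21 to 0.021, Atp1b1 -0.038 to 0.11, Car2 -0.094 to 0.021 and Car14 -0.011 to 0.15 in T5. Car2 in T1 was -0.41 and called with limma-voom. The length slope, the mean log scaling and the joint omission of CTRL 1 were chosen after seeing the data. The cause of these sign changes was not tested.

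Counts of called genes depended on the tool. DESeq2 called 701 genes in T1, 2 in T3 and 12 in T5 against CTRL, 16 in T3 against T1, 80 in T5 against T3, 2158 in T5 against T1 and 970 for any difference. Limma-voom called 4140 in T1 and 0 in T3 and T5 against CTRL, 4130 in T3 against T1, 3741 in T5 against T1 and 3907 for any difference, with 1, 1, 2 and 1 of the 9 genes among them in T1 against CTRL, T3 against T1, T5 against T1 and any difference. In T5 against T1, where 677 genes were called, the count was 1336 on library totals (2 of the 9 genes), 355 without a filter, 42 with only the 2 groups, 2283 with the brain covariate, and 0 with summed epithelial scaling, without the 4 libraries, with their term, with both terms, with the length slope and without CTRL 1 and the 4. Without a filter any difference called 10. With 1 library left out the counts were 0 to 2203 in T1 against CTRL (2203 without T1 1 and 717 without T3 4), 0 to 3 in T3 against T1, 0 to 1 in T5 against T3, 0 to 3169 in T5 against T1 (3169 without T1 1, 0 without T1 2, T1 3 or T5 3) and 0 to 1222 for any difference. Of the 9 genes 0 to 1 were called in T5 against T1 then, Slc4a5 without CTRL 1. Scaling to library totals and to summed epithelial markers moved the median of all genes in T1 against CTRL by 0.13 and 0.26. On library totals 3 of the 9 genes had an unadjusted p under 0.05 in T1 against CTRL in edgeR's test, beside 3781 of 16851 genes. With summed and with mean log epithelial scaling 3 of the 9 did too, beside 2345 and 2639 genes. Under these scalings the counts were 1, 1 and 0 in T3 against CTRL and 0 throughout in T5 against CTRL. Each of the 9 genes had at least 2094 counts in every library, though the number of molecules behind these reads is not known.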
